A study of Homo sapiens with 16 samples.

Results

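The genes described here are 8 transcription factors of the pancreatic and foregut lineage, GATA6, HNF4A, FOXA1, FOXA2, SOX9, PDX1, ONECUT2 and ONECUT3, chosen by name from a table of 58219 genes, and all 8 were in the table. The cells were PANC-1, an established line from a human pancreatic ductal carcinoma, labelled as epithelial cancer cells. Poly(A) RNA was sequenced from 8 groups of 2 libraries each: cells not transfected with siRNA (genotype label WT) and cells given siRNA to FLASH, to NPAT or to SLBP (genotype labels Flash KD, Npat KD and Slbp KD), each without and with TGFb at 100 ng/ml for 48 hours. FLASH is the protein of the CASP8AP2 gene, and FLASH, NPAT and SLBP all act in the making of replication-dependent histone mRNA. Titles of the samples name day 3, whereas 4 days from siRNA transfection are given in the design text. No group with a non-targeting siRNA was analysed here, and the labels do not say whether the non-transfected cells, also described as mock, were given transfection reagent, so loss of the target and transfection with siRNA cannot be told apart in any comparison with non-transfected cells. The 2 libraries of a group are labelled as repeats, and nothing says that they came from separate cultures, so p-values measure only the spread between these libraries, which may be technical.

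Pancreatic cells take and keep their identity through a network of transcription factors in which FOXA proteins, the pioneer factors FOXA1 and FOXA2, open chromatin in the gut tube, and PDX1, SOX9, GATA6 and the ONECUT factors then direct the pancreatic bud. In the adult organ SOX9 stays on in duct cells and PDX1 in beta cells. In pancreatic carcinoma GATA6 and HNF4A are known as factors of the classical, more epithelial subtype, and TGFb is a widely used inducer of the epithelial-to-mesenchymal transition.

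HNF4A and FOXA1 were among the members that differed between groups, and the windows around their annotated start sites are shown with the letters that match motifs of the lineage factors themselves. RefSeq windows (build GRCh38.p14) of 250 bases before and 50 after a start site were found for 4 of the 8 members, with 2 windows for HNF4A. HNF4A has an upstream promoter, used in pancreas, at chr20:44355449-44355748 on the plus strand, and a downstream one, used in adult liver, at chr20:44400989-44401288 on the plus strand. The FOXA1 window is chr14:37595200-37595499 on the minus strand. Capitals mark matches on either strand to the motifs named after the sequences.
HNF4A upstream promoter: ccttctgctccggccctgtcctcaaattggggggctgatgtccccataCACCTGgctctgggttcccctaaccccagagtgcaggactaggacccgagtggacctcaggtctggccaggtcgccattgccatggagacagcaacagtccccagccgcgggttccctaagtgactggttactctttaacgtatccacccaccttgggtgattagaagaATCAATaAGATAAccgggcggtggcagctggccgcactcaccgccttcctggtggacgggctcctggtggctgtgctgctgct
HNF4A downstream promoter: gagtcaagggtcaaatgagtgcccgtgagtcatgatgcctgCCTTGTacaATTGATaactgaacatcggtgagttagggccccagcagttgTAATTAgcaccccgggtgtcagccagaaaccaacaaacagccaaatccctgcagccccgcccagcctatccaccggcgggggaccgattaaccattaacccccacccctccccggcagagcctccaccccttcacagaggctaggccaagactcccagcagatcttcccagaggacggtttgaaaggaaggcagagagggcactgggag
FOXA1 promoter: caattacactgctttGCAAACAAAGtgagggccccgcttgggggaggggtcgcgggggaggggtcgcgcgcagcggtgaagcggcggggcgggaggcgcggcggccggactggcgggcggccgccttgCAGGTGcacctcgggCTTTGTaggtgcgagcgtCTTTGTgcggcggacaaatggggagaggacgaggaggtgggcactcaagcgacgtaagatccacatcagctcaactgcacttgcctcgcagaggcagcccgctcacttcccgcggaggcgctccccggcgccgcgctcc

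In the upstream HNF4A window the capitals are an E-box of the kind bound by ZEB and SNAI repressors (CACCTG, first base 202 bases before the start), an ONECUT core (ATCAAT, first base 33 before) and a GATA core (AGATAA, first base 26 before). The downstream window holds a SOX core (CCTTGT), an ONECUT core on the minus strand (ATTGAT) and the homeodomain core searched for PDX1 (TAATTA). In the FOXA1 window a forkhead match (GCAAACA, minus strand, for TGTTTNC) overlaps a SOX match (ACAAAG), and 2 more SOX matches (CTTTGT) and an E-box (CAGGTG) follow. Of 35116 promoter windows of the same length, 10.3% held AGATAA, 6.26% ATCAAT, 4.84% TAATTA, 18.0% TGTTTNC, 35.5% the SOX core ACAANG and 20.6% CACCTG, each on either strand. The HNF4A motif searched (CAAAGTCCA, held by 0.384% of windows) and the SMAD motif (CAGACA, held by 16.9%) were not found in the windows of the members, and the GATA6 and ONECUT2 windows held none of the 8 motifs. A match is a description of the letters and not of binding.

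Library depth ranged from 23830118 to 30832499 counts, and replicate libraries correlated over genes at 0.9807 to 0.9906 (Pearson's r of log2 CPM, counts scaled to a common library total by TMM). The siRNA targets stood at 20.5% and 21% of their non-transfected level for CASP8AP2 (without and with TGFb), at 10.7% and 12.7% for NPAT and at 5.76% and 6.5% for SLBP. Of markers of other pancreatic cell types, INS, the insulin gene, had 0 counts in every library, and 9 of 12 acinar and 6 of 9 endocrine markers were at 0 in non-transfected cells. Duct markers were high in sum (1180 to 1290 TPM, the length-scaled unit of the authors' table, without siRNA or TGFb).

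The members covered a wide range of levels. On the TPM scale, which allows for gene length, SOX9 was the highest, with a mean of 80 TPM over the 16 libraries, above 89.6% of the 17743 genes tested. FOXA2 followed with 21.5 TPM, above 65.2% of genes, and ONECUT3 with 3.96 TPM, above 36%. The other members were near the bottom of the measured range: FOXA1 at 1.46 TPM, PDX1 at 0.834, ONECUT2 at 0.832, GATA6 at 0.623 and HNF4A at 0.591, the last above only 13.5% of genes tested. For ONECUT2 the TPM rests on a length that the deposited table gives as 8681.7 to 16121 bases in different libraries, so its levels below are in CPM, the scale used for every comparison within a gene.

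**Figure D1:**
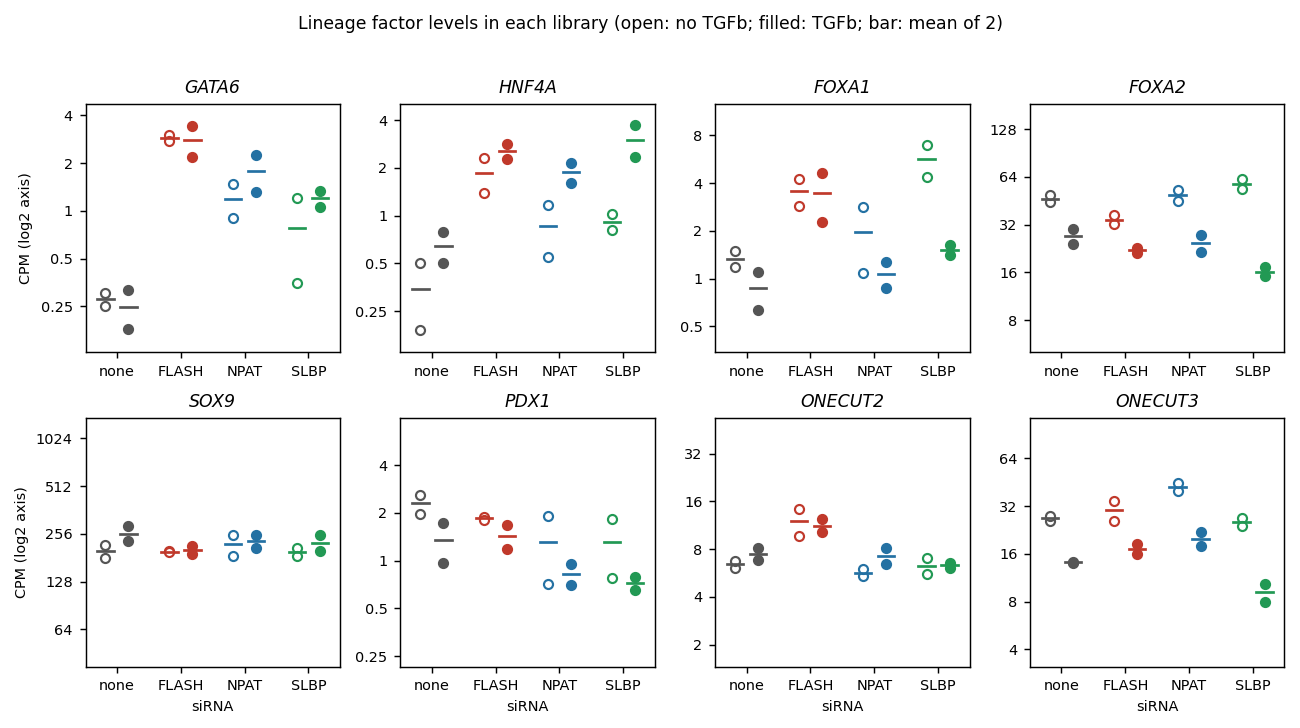
Level of each of the 8 factors in each of the 16 libraries, in TMM-scaled CPM on a log2 axis whose span is the same in every panel; open points are libraries without TGFb, filled points with TGFb, and short bars the mean of 2 libraries. GATA6 and HNF4A stand higher in the siRNA groups than without siRNA, FOXA2 and ONECUT3 stand lower with TGFb in all 4 kinds of cells, and SOX9 lies between 179 and 285 CPM throughout.

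GATA6, a zinc finger factor of endoderm and of the classical carcinoma subtype, was nearly silent in PANC-1 cells and higher after each siRNA. The gene (ENSG00000141448.8) lies at chr18:22169443-22202528 on the plus strand (GRCh38, GENCODE 29). Without TGFb the 2 non-transfected libraries held 7 and 8 counts, or 0.25 and 0.305 CPM, against 3.02 and 2.76 CPM with FLASH siRNA, 1.47 and 0.906 with NPAT siRNA and 1.21 and 0.353 with SLBP siRNA. With TGFb the values were 0.317 and 0.18 CPM without siRNA, 2.18 and 3.41 with FLASH siRNA, 1.32 and 2.24 with NPAT siRNA and 1.34 and 1.06 with SLBP siRNA. All 12 siRNA libraries were thus above all 4 non-transfected ones, and the order of the 8 groups ran from FLASH siRNA down to non-transfected cells with TGFb, with overlapping libraries between every pair of neighbours but SLBP siRNA and non-transfected cells. In a bulk sample, fewer cells making a transcript and less transcript per cell cannot be told apart.

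The rise of GATA6 passed the test in 5 of the 6 comparisons with non-transfected cells. With FLASH siRNA its log2 fold change was 3.36 (SE 0.55, adjusted p = 0.00066) without TGFb and 3.48 (SE 0.56, adjusted p = 0.00076) with TGFb, and both calls held with any 1 library left out. For NPAT siRNA it was 2.09 (adjusted p = 0.016) and 2.84 (adjusted p = 0.0043), and for SLBP siRNA 1.49 (SE 0.59, adjusted p = 0.08, not passed) and 2.27 (adjusted p = 0.018). These other calls were less firm. The NPAT call without TGFb was lost, at adjusted p of up to 0.1, without either non-transfected library or NPAT replicate 1, that with TGFb without non-transfected replicate 2 (adjusted p = 0.056), and the SLBP call without any of its 4 libraries (up to 0.14). GATA6 passed the filter on low counts only through siRNA libraries: 11 of 12 siRNA libraries and 0 of 4 non-transfected ones were above the cut of 0.377 CPM, so a difference in this direction was built into its being tested. Among genes under 1 CPM in non-transfected cells, 41% were called higher with FLASH siRNA without TGFb and 39% with TGFb, against 25.9% and 23.8% with NPAT siRNA and 24% and 25.4% with SLBP siRNA.

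HNF4A (ENSG00000101076.16, chr20:44355700-44434596, plus strand), a nuclear receptor that drives hepatocyte and gut epithelial genes, showed the same direction as GATA6 with siRNA. In non-transfected libraries it stood at 0.5 and 0.19 CPM (14 and 5 counts) without TGFb and at 0.793 and 0.503 CPM with it. The values without TGFb were 2.31 and 1.4 CPM with FLASH siRNA, 1.17 and 0.551 with NPAT siRNA and 0.815 and 1.02 with SLBP siRNA. With TGFb they were 2.84 and 2.28 with FLASH siRNA, 2.15 and 1.6 with NPAT siRNA and 2.33 and 3.71 with SLBP siRNA. Every siRNA library was above both non-transfected libraries of its TGFb state.

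HNF4A rose with FLASH siRNA by 2.4 on the log2 scale without TGFb (SE 0.50, adjusted p = 0.0033), a call that held with any 1 library left out, and by 1.98 with TGFb (SE 0.46, adjusted p = 0.007). With TGFb it also rose with SLBP siRNA (log2 2.22, SE 0.46, adjusted p = 0.0055) and NPAT siRNA (1.53, SE 0.46, adjusted p = 0.031). Without TGFb the differences of 1.30 for NPAT siRNA (adjusted p = 0.08) and 1.39 for SLBP siRNA (adjusted p = 0.069) did not pass. TGFb itself raised HNF4A in SLBP siRNA cells (log2 1.71, SE 0.44, adjusted p = 0.022), and its values in non-transfected, FLASH siRNA and NPAT siRNA cells were 0.88, 0.47 and 1.11 with adjusted p of 0.48, 0.66 and 0.21. The calls with TGFb depended on single libraries: that of FLASH siRNA was lost without non-transfected replicate 2 (adjusted p = 0.076), that of SLBP siRNA without the same library or SLBP replicate 2 (up to 0.069), and that of NPAT siRNA without any of its 4 libraries (up to 0.2). The TGFb call in SLBP siRNA cells was lost without either SLBP siRNA library lacking TGFb or without SLBP replicate 2 with TGFb (up to 0.16), and in a fit of those 2 groups alone (adjusted p = 0.08).

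FOXA1 (ENSG00000129514.5, chr14:37589984-37596059, minus strand), a pioneer factor of endodermal epithelia, differed from its paralog FOXA2 in both level and pattern. Its level was 1.5 and 1.18 CPM in non-transfected libraries, 2.86 and 4.24 with FLASH siRNA, 1.09 and 2.84 with NPAT siRNA and 4.37 and 6.92 with SLBP siRNA. With TGFb it was 0.634 and 1.11 CPM without siRNA, 2.28 and 4.66 with FLASH siRNA, 0.869 and 1.27 with NPAT siRNA and 1.42 and 1.63 with SLBP siRNA. SLBP siRNA without TGFb gave the highest group mean, with both libraries above those of the next group, FLASH siRNA, though 1 FLASH siRNA library with TGFb lay between them, and the NPAT siRNA values spanned those of non-transfected cells.

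Tests gave a rise of FOXA1 with FLASH siRNA without TGFb (log2 1.40, SE 0.47, adjusted p = 0.037) and with TGFb (1.97, SE 0.49, adjusted p = 0.011), and with SLBP siRNA without TGFb (2.07, SE 0.47, adjusted p = 0.008). With SLBP siRNA under TGFb the difference was 0.79 (SE 0.52, adjusted p = 0.31), and with NPAT siRNA it was 0.54 and 0.29 (adjusted p = 0.42 and 0.73). TGFb lowered FOXA1 in SLBP siRNA cells, from a mean of 5.64 to 1.53 CPM (log2 -1.88, SE 0.47, adjusted p = 0.019). None of these 4 FOXA1 calls held with every library left out in turn. That of FLASH siRNA was lost without any of its 4 libraries when TGFb was absent (adjusted p up to 0.2) and, when TGFb was present, without non-transfected replicate 1 or FLASH replicate 2 (up to 0.13). That of SLBP siRNA was lost without either non-transfected library or SLBP replicate 2 (up to 0.057), and the TGFb call without SLBP replicate 2 or either SLBP library with TGFb (up to 0.13).

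**Figure D2:**
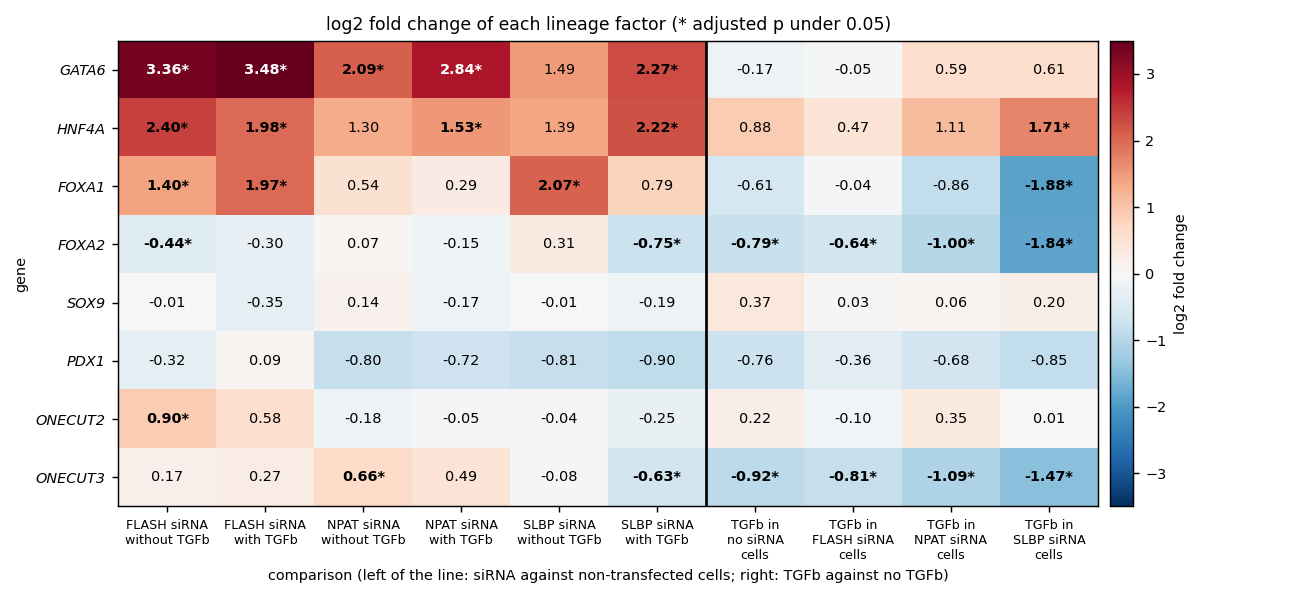
log2 fold change of each factor (rows) in 6 comparisons of an siRNA with non-transfected cells and 4 of TGFb with no TGFb (columns); red is higher, blue lower, and a star marks adjusted p under 0.05. GATA6 and HNF4A are positive in all 6 siRNA columns, FOXA2 and ONECUT3 are negative and starred in all 4 TGFb columns, and the SOX9 and PDX1 rows hold no star.

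The siRNAs changed many genes, and the members' counts stand beside that background. With FLASH siRNA 5 of 8 members were called without TGFb, 4 higher and 1 lower, where 33.8% of all genes were called, 20.8% higher and 12.9% lower. With TGFb 3 of 8 were called, all higher, where 26.6% of genes were, 17.5% higher and 9.06% lower. With NPAT siRNA 2 of 8 were called without TGFb, both higher, against 32.3% of genes (18.9% higher and 13.3% lower), and 2 of 8 with it, both higher, against 24.1% (13.7% and 10.3%). With SLBP siRNA 1 of 8 was called without TGFb, higher, against 25.9% (15.1% and 10.8%), and 4 of 8 with TGFb, 2 higher and 2 lower, against 19.9% (12.3% and 7.6%). The median log2 fold change of the 8 members was 0.54 and 0.42 for FLASH siRNA, 0.34 and 0.12 for NPAT siRNA and 0.15 and -0.22 for SLBP siRNA (without and with TGFb), where the median of all genes was between 0.01 and 0.06. The 3 siRNAs were compared with the same non-transfected libraries, so their results share those controls.

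FOXA2, the second forkhead pioneer factor, was lower with TGFb in every kind of cell. The gene (ENSG00000125798.14) lies at chr20:22581005-22585455 on the minus strand. Non-transfected libraries held 44.5 and 49.0 CPM without TGFb and 24.3 and 29.9 CPM with it. FLASH siRNA libraries held 32.1 and 36.7 against 22.9 and 21.2 CPM, NPAT siRNA libraries 45.2 and 52.8 against 21.4 and 27.4 CPM, and SLBP siRNA libraries 53.7 and 62.0 against 17.2 and 15.1 CPM. All 8 libraries with TGFb were below all 8 without it. SLBP siRNA cells had both the highest level without TGFb and the lowest with it, and neither of these groups overlapped with its neighbour in the order.

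The TGFb change of FOXA2 was -0.79 on the log2 scale in non-transfected cells (SE 0.15, adjusted p = 0.0077), -0.64 in FLASH siRNA cells (SE 0.15, adjusted p = 0.034), -1 in NPAT siRNA cells (SE 0.15, adjusted p = 0.0019) and -1.84 in SLBP siRNA cells (SE 0.16, adjusted p = 1e-05). The call in SLBP siRNA cells held under every alternative. That in non-transfected cells was lost without replicate 2 lacking TGFb or replicate 1 with TGFb (adjusted p up to 0.093), that in FLASH siRNA cells without any of its 4 libraries (up to 0.25), and that in NPAT siRNA cells only in a fit of its 2 groups alone (0.053). Against non-transfected cells FOXA2 was lower with FLASH siRNA without TGFb (log2 -0.44, adjusted p = 0.038, lost without any of the 4 libraries, up to 0.17) and with SLBP siRNA under TGFb (-0.75, SE 0.15, adjusted p = 0.0056, lost without non-transfected replicate 2 or SLBP replicate 2, up to 0.069).

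Next to FOXA2, LINC00261 (ENSG00000259974.2, chr20:22547671-22578642), a long noncoding RNA gene of endoderm, lies on the same strand with 2362 bases between the genes. Its level without TGFb was 11.7 and 7.42 CPM in non-transfected libraries, 13.7 and 11 with FLASH siRNA, 26.2 and 51.7 with NPAT siRNA and 33.8 and 40.8 with SLBP siRNA. With TGFb it was 1.51 and 4.49 CPM without siRNA, 2.88 and 5.07 with FLASH siRNA, 0.538 and 8.56 with NPAT siRNA and 3.48 and 3.91 with SLBP siRNA. As for FOXA2, the groups with and without TGFb did not overlap in any kind of cell. In CPM the replicates of LINC00261 lay far apart, most of all in NPAT siRNA cells with TGFb, with 13 and 256 counts. The deposited length of LINC00261 in those libraries was 469.84 and 2572.77 bases, and in TPM they stood nearer, at 2.38 and 4.93. LINC00261 fell with TGFb in SLBP siRNA cells (log2 -3.33, SE 0.77, adjusted p = 0.013) and NPAT siRNA cells (-3.06, SE 0.75, adjusted p = 0.033), and its values in non-transfected and FLASH siRNA cells, -1.66 and -1.64, did not pass (adjusted p = 0.29 and 0.3). It was higher with NPAT siRNA without TGFb (2.02, SE 0.71, adjusted p = 0.046). Each of these 3 calls was lost with some library left out: the SLBP call without either TGFb library (adjusted p up to 0.1), the NPAT call for TGFb without replicate 2 lacking TGFb or replicate 1 with TGFb (up to 0.17), and the rise without either non-transfected library or NPAT replicate 2 (up to 0.22). The NPAT call for TGFb was also lost in a fit of its 2 groups alone (0.21), and the rise with DESeq2 (0.087). Without a filter on low counts the TGFb values in non-transfected and FLASH siRNA cells had adjusted p of 3.4e-12 and 2.8e-12. That fit also gave 6.9e-43 for TGFb in NPAT siRNA cells, despite the 13 and 256 counts of its libraries. Its p-values therefore do not measure the spread between replicates of LINC00261 and are not taken as calls. In a fit of its 2 groups alone the value in FLASH siRNA cells passed (0.0028).

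ONECUT3 (ENSG00000205922.4, chr19:1752373-1780988, plus strand), a homeodomain factor of the HNF6 family, shared the TGFb decrease of FOXA2. Its level went from 25.8 and 27.8 CPM without TGFb to 14.1 and 14.3 with it in non-transfected cells, and from 25.8 and 34.6 to 16 and 18.4 with FLASH siRNA. It went from 40.0 and 44.7 to 17.8 and 22.0 CPM with NPAT siRNA and from 27.1 and 23.8 to 10.4 and 7.98 with SLBP siRNA. The 8 libraries with TGFb were all below the 8 without it, NPAT siRNA gave the highest group of each TGFb state, and SLBP siRNA with TGFb the lowest.

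The TGFb change of ONECUT3 was -0.92 in non-transfected cells (log2, SE 0.17, adjusted p = 0.0065), -0.81 in FLASH siRNA cells (SE 0.17, adjusted p = 0.017), -1.09 in NPAT siRNA cells (SE 0.17, adjusted p = 0.0024) and -1.47 in SLBP siRNA cells (SE 0.18, adjusted p = 0.00015). The calls in NPAT and SLBP siRNA cells held under every alternative. The call in non-transfected cells was lost without replicate 2 lacking TGFb or either library with TGFb (adjusted p up to 0.055), and that in FLASH siRNA cells without FLASH replicate 2 lacking TGFb or either library with TGFb (up to 0.21). Against non-transfected cells ONECUT3 was higher with NPAT siRNA without TGFb (log2 0.66, SE 0.17, adjusted p = 0.011) and lower with SLBP siRNA under TGFb (-0.63, SE 0.18, adjusted p = 0.026). The NPAT call was lost without non-transfected replicate 1 or NPAT replicate 2 (up to 0.097), and the SLBP call without either non-transfected library or SLBP replicate 2 (up to 0.22).

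**Figure D3:**
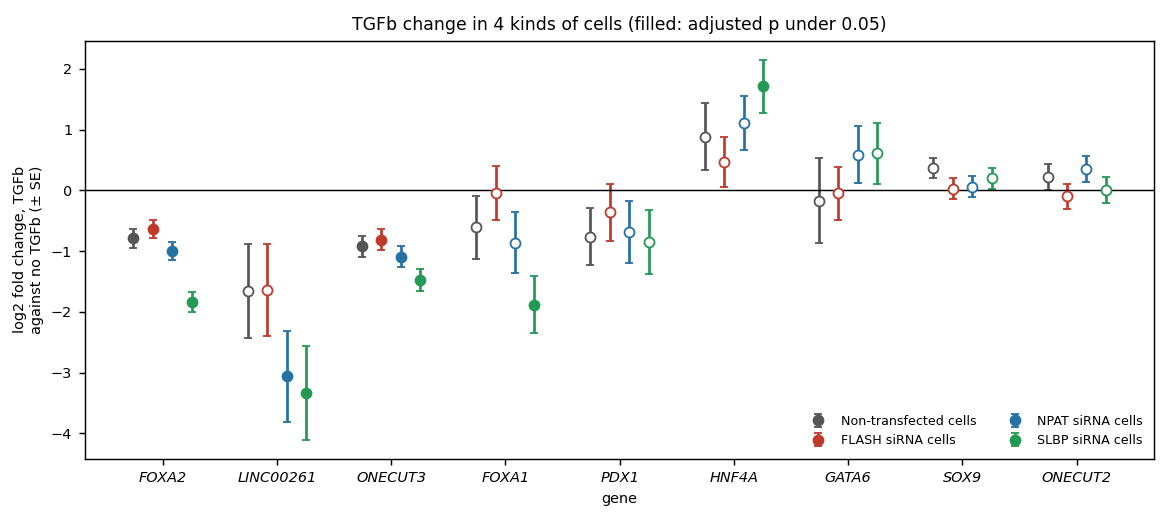
log2 fold change of TGFb against no TGFb for the 8 factors and LINC00261, the noncoding neighbour of FOXA2, in the 4 kinds of cells; points are fitted values, bars 1 SE and filled points adjusted p under 0.05. FOXA2 and ONECUT3 are negative and filled in all 4 kinds of cells and lowest in SLBP siRNA cells, at -1.84 and -1.47, and HNF4A is positive in all 4 but filled only in SLBP siRNA cells.

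For TGFb the members' counts stood as follows against all genes. In non-transfected cells 2 of 8 were called, both lower, where 6.18% of genes were called, and in FLASH siRNA cells 2 of 8, both lower, where 4.11% were. NPAT siRNA cells had 2 of 8, both lower, against 5.33%, and SLBP siRNA cells 4 of 8, 1 higher and 3 lower, against 12.6%. The 2 lower members were FOXA2 and ONECUT3 in each kind of cell, joined by FOXA1 in SLBP siRNA cells, where HNF4A was the 1 that rose. By direction TGFb lowered 1.64% and raised 4.54% of all genes in non-transfected cells, 0.755% and 3.35% in FLASH, 1.92% and 3.42% in NPAT and 4.51% and 8.07% in SLBP siRNA cells.

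Whether an siRNA altered the TGFb change was tested as an interaction, and 0 of 8 members passed for any siRNA. Among all genes edgeR called 15 for FLASH siRNA (0.0845%, with 0.00564% higher and 0.0789% lower), 8 for NPAT siRNA (0.0451%, all lower) and 4 for SLBP siRNA (0.0225%, with 0.0113% in each direction), and DESeq2 called 31, 26 and 31. In edgeR 597, 569 and 857 genes had an unadjusted p under 0.05. The lowest p among the members was that of FOXA2 for SLBP siRNA, whose TGFb change was 1.05 log2 units further down than in non-transfected cells (interaction -1.05, SE 0.21, adjusted p = 0.3 by edgeR). This FOXA2 term passed under 3 alternatives, DESeq2 (adjusted p = 0.017), no filter on low counts (0.0013) and the replicate number as a block (0.033). The unfiltered p-value carries the limit given for LINC00261 above. The FOXA2 term did not pass in a fit of the 4 groups alone (0.81) or with any 1 library left out. For ONECUT3 the same term was -0.56 (SE 0.24) and for FOXA1 -1.28 (SE 0.70), each with an adjusted p of 1 by edgeR.

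ONECUT2 (ENSG00000119547.5, chr18:57435685-57491297, plus strand), a paralog of ONECUT3, followed a different pattern, set by FLASH siRNA. Its level was 6.11 and 6.74 CPM in non-transfected cells, 9.72 and 14.3 with FLASH siRNA, 5.43 and 5.95 with NPAT siRNA and 6.98 and 5.54 with SLBP siRNA. With TGFb it was 6.82 and 8.16 CPM without siRNA, 10.2 and 12.3 with FLASH siRNA, 8.07 and 6.45 with NPAT siRNA and 6.09 and 6.56 with SLBP siRNA. All 4 FLASH siRNA libraries were above the other 12. ONECUT2 rose with FLASH siRNA without TGFb (log2 0.90, SE 0.21, adjusted p = 0.0058), which did not pass when non-transfected replicate 1 or FLASH replicate 2 was left out (up to 0.078), while the value with TGFb was 0.58 (SE 0.21, adjusted p = 0.056) and from 0.026 to 0.3 over the alternatives, with DESeq2 at 0.046. Its TGFb changes lay between -0.10 and 0.35, with adjusted p no lower than 0.44.

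SOX9 (ENSG00000125398.5, chr17:72121020-72126420, plus strand), the duct and progenitor factor, and PDX1 (ENSG00000139515.5, chr13:27920020-27926231, plus strand), the master factor of the pancreatic bud and of beta cells, passed in none of the 19 comparisons as fitted here. SOX9 had a lowest library of 179 CPM, a median of 209 and a highest of 285, and the highest group mean was 1.31 times the lowest. Its fitted siRNA differences lay between -0.35 and 0.14 and its TGFb differences between 0.03 and 0.37 (SE 0.17 each), with a lowest adjusted p of 0.16, that of FLASH siRNA with TGFb (-0.35), which passed without a filter on low counts (0.019). That unfiltered p-value carries the limit given for LINC00261. PDX1 had a lowest library of 0.651 CPM, a median of 1.44 and a highest of 2.61, so its 16 to 73 counts a library gave wide errors. Its siRNA differences lay between -0.90 and 0.09 and its TGFb differences between -0.85 and -0.36, with SE of 0.46 to 0.52 and a lowest adjusted p of 0.22. With NPAT replicate 1 left out the PDX1 difference of NPAT siRNA without TGFb passed (-1.69, adjusted p = 0.043).

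The noncoding antisense partners were mostly too low to test. GATA6-AS1 (chr18:22164886-22169878, minus strand), which overlaps GATA6 by 436 bases, had 0 counts in non-transfected cells without TGFb, 1 with TGFb and 7 and 9 in FLASH siRNA cells without and with TGFb, and HNF4A-AS1 had 0 counts in every library. SOX9-AS1, which spans the whole of SOX9 on the other strand, was lower with SLBP siRNA under TGFb (1.04 against 1.89 CPM, log2 -0.86, SE 0.27, adjusted p = 0.044), which did not pass when either non-transfected library or SLBP replicate 2 was left out (up to 0.29). The sources used here do not say whether counting used strand, so reads of a gene and its antisense partner cannot be told apart.

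Direct tests between siRNAs do not compare with the non-transfected libraries, but these still share in the filter, scaling and estimate of spread. Between FLASH and NPAT siRNA 2 of 8 members differed without TGFb, 1 higher and 1 lower with FLASH siRNA (22.3% of all genes, 12.4% higher and 9.91% lower), and 1 of 8, higher, with TGFb (13.6%, 9.09% and 4.5%). Between FLASH and SLBP siRNA 3 of 8 differed without TGFb, 2 higher and 1 lower with FLASH siRNA (26.2%, 15.3% and 10.8%), and 2 of 8, both higher, with it (13%, 8.3% and 4.73%). Between NPAT and SLBP siRNA 2 of 8 differed without TGFb, 1 higher and 1 lower with NPAT siRNA (16%, 8.88% and 7.11%), and 2 of 8, both higher, with it (12.4%, 5.77% and 6.61%). ONECUT2 was higher with FLASH than with NPAT siRNA without TGFb (log2 1.08, SE 0.21, adjusted p = 0.0042), FOXA2 lower with FLASH than with SLBP siRNA without TGFb (-0.75, SE 0.15, adjusted p = 0.0039), and ONECUT3 higher with NPAT than with SLBP siRNA under TGFb (1.12, SE 0.18, adjusted p = 0.0019). These 3 calls held under every alternative.

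Other differences between siRNAs were each lost with at least 1 library left out. Some were also lost in edgeR fits of only the groups compared. For FLASH against SLBP siRNA without TGFb these were GATA6 (adjusted p = 0.084) and ONECUT2 (0.081). FOXA2 was lost for FLASH against NPAT siRNA without TGFb (0.051). For NPAT against SLBP siRNA FOXA1 (0.23) and ONECUT3 (0.14) were lost without TGFb, and FOXA2 (0.076) with it. GATA6 was higher with FLASH than with SLBP siRNA without TGFb (log2 1.87, SE 0.47, adjusted p = 0.013, lost without FLASH replicate 1 or SLBP replicate 2, up to 0.071), and its FLASH to NPAT difference of 1.28 (SE 0.46) did not pass (0.064). FOXA1 was higher with FLASH than with NPAT siRNA under TGFb (1.68, SE 0.48, adjusted p = 0.038, lost without FLASH replicate 2 or either NPAT library, up to 0.32) and lower with NPAT than with SLBP siRNA without TGFb (-1.52, SE 0.46, adjusted p = 0.04, lost without NPAT replicate 1 or SLBP replicate 2, up to 0.22). FOXA2 was lower with FLASH than with NPAT siRNA without TGFb (-0.51, adjusted p = 0.029, lost without either FLASH library or NPAT replicate 2, up to 0.19) and higher with NPAT than with SLBP siRNA under TGFb (0.59, adjusted p = 0.026, lost without either SLBP library or NPAT replicate 2, up to 0.24). The 4 remaining calls were those of the ONECUT pair. ONECUT2 was higher with FLASH than with SLBP siRNA without TGFb (0.94, adjusted p = 0.0068, lost without replicate 2 of either, up to 0.079) and with TGFb (0.83, adjusted p = 0.024, lost without FLASH replicate 2 or either SLBP library, up to 0.18). ONECUT3 was higher with NPAT than with SLBP siRNA without TGFb (0.73, adjusted p = 0.011, lost without replicate 2 of either, up to 0.061) and with FLASH than with SLBP siRNA under TGFb (0.91, adjusted p = 0.0071, lost without replicate 2 of either, up to 0.079).

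Likeness of the members' profiles was described by the root-mean-square (RMS) difference of 2 genes' log2 CPM over the 8 group means, each gene centred on its own mean. Among members the closest pair was FOXA2 and ONECUT3 (0.35), then SOX9 and ONECUT2 (0.42) and PDX1 and ONECUT2 (0.49). GATA6 and HNF4A stood at 0.65, behind these and other pairs, and GATA6 and FOXA2 were furthest apart (1.48). Among 11348 or 11349 genes with at least 5 CPM, the closest to GATA6 were GPX3 (0.17), a secreted glutathione peroxidase, CORO2B (0.24) and TGFA (0.25), where the median gene was at 1.2. GPX3 went from 1.89 ± 0.451 CPM (SD, n = 2) in non-transfected cells to 21.1 ± 0.981 with FLASH siRNA and 20.6 ± 3.47 with FLASH siRNA and TGFb. Closest to HNF4A were UNC5B (0.11), a netrin receptor, LAMA4 (0.19) and GLIPR2 (0.21), and closest to FOXA1 were SERPINI1 (0.37), CREB3L1 (0.39) and CYP1A1 (0.4).

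For FOXA2 the closest genes were TNS3 (0.15), PDE5A (0.16) and CYB5B (0.18), with the median gene at 0.64, and for ONECUT3 they were CABLES1 (0.12), MYO18A (0.16) and RNF144B (0.17), with the median gene at 0.69. CABLES1 went from 80.6 ± 6.91 CPM (SD, n = 2) in non-transfected cells to 38.8 with TGFb, and from 137 ± 18.4 with NPAT siRNA to 64.7 ± 11.3 with NPAT siRNA and TGFb. C2orf72 (0.09), LMO7 (0.12) and ZHX3 (0.12) were closest to ONECUT2, and SUV39H1 (0.15), HSPA4L (0.16) and MPC1 (0.16) to PDX1. SOX9, whose group means spanned 0.38 on the log2 scale, was below the span of 1 set for this comparison. These distances rest on 8 group means that all share the same libraries and are a description.

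**Figure D4:**
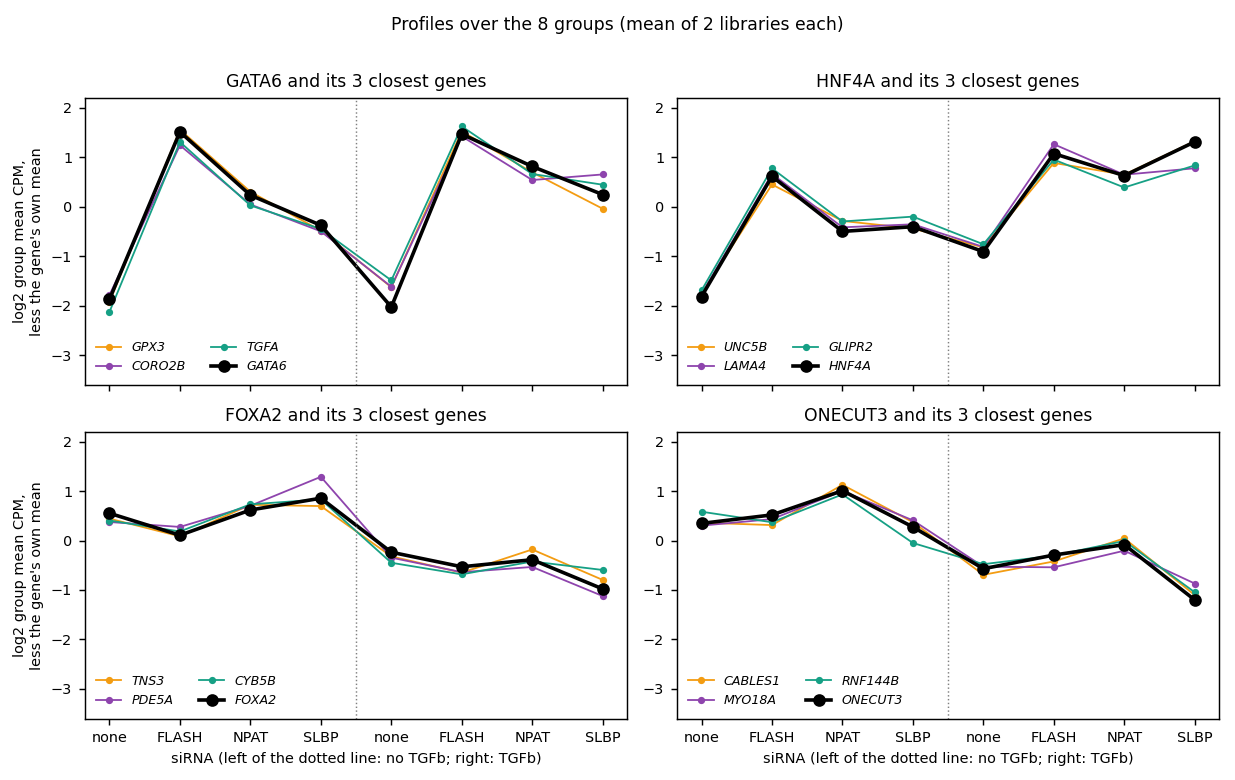
Profiles of GATA6, HNF4A, FOXA2 and ONECUT3 (black) and of the 3 genes closest to each over the 8 groups, as log2 of the group mean CPM of 2 libraries less the gene's own mean; groups left of the dotted line had no TGFb. GATA6 and its closest genes are highest with FLASH siRNA in both TGFb states, and FOXA2 and ONECUT3 with theirs are lower with TGFb.

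Other genes of the lineage network were described from lists written from general knowledge. Of 36 other pancreatic and endodermal transcription factors 26 were tested, and the acinar and endocrine factors PTF1A, RBPJL, NKX2-2, NEUROG3, NEUROD1, INSM1, PAX4 and RFX6 were among those too low. With FLASH siRNA 10 of 26 were higher and 1 lower without TGFb (median log2 0.59) and 11 higher and 2 lower with it (0.88). With NPAT siRNA 6 were higher and 1 lower, and with TGFb 2 higher. SLBP siRNA gave 5 higher and 1 lower, and 6 higher with TGFb. Of all genes 20.8% without and 17.5% with TGFb were higher with FLASH siRNA. These shares were 18.9% and 13.7% for NPAT siRNA and 15.1% and 12.3% for SLBP siRNA. From 7.6% to 13.3% of all genes were lower in the 6 comparisons. EHF, an epithelial ETS factor, had 0 counts in all non-transfected libraries and 37 with FLASH siRNA without TGFb, at least 12.7-fold higher (against a floor of 3 counts over the group). PROX1, a homeodomain factor of the early pancreas and liver, rose with FLASH siRNA from 0.386 to 3.32 CPM without TGFb (log2 3.09, SE 0.44, adjusted p = 0.00025) and from 0.295 to 4.12 with it (3.76, SE 0.45, adjusted p = 0.00011), both calls holding with any 1 library left out. As for GATA6, genes this low passed the filter through the groups where they were high.

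TGFb changed 1 to 4 of the 26 in each kind of cell, where it changed 4.11% to 12.6% of all genes. HES1, a Notch target that holds back endocrine fate, rose in non-transfected cells from 25.8 to 53.7 CPM (log2 1.06, SE 0.18, adjusted p = 0.0036), and ELF3, an epithelial ETS factor, fell in NPAT siRNA cells from 6.68 to 1.44 CPM (-2.21, SE 0.37, adjusted p = 0.0039), and these 2 calls held with any 1 library left out. Of 14 factors of the basal-like or mesenchymal carcinoma state 13 were tested, and TGFb raised 2, 3, 2 and 6 and lowered 1, 1, 1 and 2 of them in non-transfected, FLASH, NPAT and SLBP siRNA cells. GLI2, a hedgehog pathway factor, rose with TGFb in all 4 kinds of cells, by 2.26, 1.58, 1.53 and 2.71 on the log2 scale (highest adjusted p 0.00094). ZEB1, a repressor that binds E-boxes, fell with FLASH siRNA without TGFb from 68.9 to 39.8 CPM (-0.79, SE 0.12, adjusted p = 0.00033). The GLI2 and ZEB1 calls held with any 1 library left out. Against non-transfected cells 1 to 3 of these 13 factors were higher and 0 or 1 lower in each siRNA comparison. Of all genes 12.3% to 20.8% were higher and 7.6% to 13.3% lower in these comparisons. TGFb raised 3.35% to 8.07% of all genes and lowered 0.755% to 4.51%.

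Subtype genes and target genes of the members were mostly too low to test. Of 23 genes of the classical carcinoma subtype 8 were tested, of which 1 to 4 were higher and 0 lower in each siRNA comparison, and with TGFb 0 were higher and 1 or 2 lower. AGR2 was the 1 lowered by TGFb in all 4 kinds of cells. TGFb lowered 0.755% to 4.51% of all genes. Of 24 basal-like subtype genes 14 were tested, of which 11 were higher with FLASH siRNA in each TGFb state and 5 to 7 with the other siRNAs, with 0 lower. So genes of both subtypes were among those called higher with siRNA. Some of them, such as UCA1, TNS4 and FAM83A, had 0 or 1 counts in non-transfected cells of either TGFb state. Of all genes under 1 CPM in those cells, 23.8% to 41% were called higher in the siRNA comparisons, and of all genes tested 12.3% to 20.8%. Of 19 genes of hepatocytes and gut epithelium, the tissues where HNF4A and FOXA factors act, 7 were tested: 3 were higher with FLASH siRNA in each TGFb state, 5 and 1 with NPAT siRNA and 2 and 1 with SLBP siRNA (without and with TGFb), while the albumin, apolipoprotein and transthyretin genes ALB, APOA1 and TTR were not above the filter. VIL1, the gut villin gene, was 1 of these, with 4 counts in non-transfected cells and 61 with FLASH siRNA without TGFb (log2 3.89, SE 0.70, adjusted p = 0.0012). At this level VIL1 passed the filter on low counts only through siRNA libraries, so a difference in this direction was built into its being tested. In that comparison 41% of genes under 1 CPM in non-transfected cells were called higher.

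Of 13 cartilage target genes of SOX9 12 were tested, and 6 to 8 were higher and 0 lower in each siRNA comparison. Of all genes 12.3% to 20.8% were higher, and of genes under 1 CPM in non-transfected cells 23.8% to 41%. Some of the 12 were that low: without TGFb, non-transfected cells held 3 counts of COMP, 0 of ACAN and 4 of HAPLN1. ACAN and HAPLN1 passed the filter on low counts only through siRNA libraries. COL2A1, the cartilage collagen gene, stood at 0.976 CPM in non-transfected cells and 51.3 with SLBP siRNA (log2 5.73, SE 0.49, adjusted p = 2.3e-05), and fell with TGFb in SLBP siRNA cells to 5.91 (-3.12, SE 0.41, adjusted p = 0.00027). With TGFb 4, 1, 4 and 3 of the 12 were higher in non-transfected, FLASH, NPAT and SLBP siRNA cells, and 1 was lower, COL2A1 in SLBP siRNA cells. TGFb raised 3.35% to 8.07% of all genes and lowered 0.755% to 4.51%. Of 8 beta cell target genes of PDX1 3 were tested and 0 changed with TGFb. MAFA, a beta cell factor, was higher with FLASH siRNA without TGFb (5.83 against 1.29 CPM, log2 2.17, SE 0.37, adjusted p = 0.00084). These COL2A1 and MAFA calls held with any 1 library left out.

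Cell type markers are given beside these results. The summed level of 13 duct markers was 1710 to 1780 TPM with FLASH siRNA, 1260 to 1510 with NPAT siRNA and 1240 to 1280 with SLBP siRNA, against 1180 to 1290 in non-transfected cells, and 794 to 826 in non-transfected cells with TGFb. Of the 11 duct markers tested 6 were higher with FLASH siRNA, 2 with NPAT siRNA and 1 with SLBP siRNA, and 8, 4 and 4 with TGFb present. Of all genes 20.8%, 18.9% and 15.1% were higher with these siRNAs, and 17.5%, 13.7% and 12.3% with TGFb present. CFTR, a duct marker, had 0 counts in non-transfected cells of either TGFb state. TGFb lowered 3, 0, 4 and 4 of the 11 and raised 0, 0, 1 and 2 in non-transfected, FLASH, NPAT and SLBP siRNA cells. TGFb lowered 0.755% to 4.51% of all genes and raised 3.35% to 8.07%. Stromal and leukocyte markers summed to 93 to 169 TPM in non-transfected cells, nearly all of it CD68, and to 43.8 to 238 over the siRNA groups. Of 7 tested 3 to 5 were higher in each siRNA comparison, while the leukocyte genes PTPRC and CD3E stayed at or below 0.12 and 0.31 TPM. Of all genes 12.3% to 20.8% were higher, and of genes under 1 CPM in non-transfected cells 23.8% to 41%. Some of the 7 were that low: without TGFb, non-transfected cells held 0 counts of VWF, 0 of DCN and 1 of LUM. Acinar markers summed to 0.65 to 2.53 TPM over all libraries, and 1 of 12 was tested and did not pass. Endocrine markers summed to 12.2 to 21.4 TPM, and of 3 tested at most 2 were higher and 1 lower in any comparison. The part of these markers in the results above was not tested.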

How the data were processed

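Poly(A) RNA of 16 PANC-1 libraries was sequenced with a stranded kit, per the labels' protocols. STAR 2.4.2a, RSEM 1.2.31 and GRCh38.p10 are named in the submitters' processing notes. The authors deposited, per gene and library, an expected count, a TPM and other columns, of which 32, those of effective length and of FPKM, stayed unused. Whether counting used strand is not given in the sources used here.

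Expected counts, as deposited by the authors, were rounded to whole numbers. Of 58219 genes, 17743 passed filterByExpr (edgeR 4.0.16, R 4.3.3). A mean for each group was fitted over all 16 libraries (8 residual degrees of freedom, TMM scaling) and tested by edgeR's quasi-likelihood F test in 19 comparisons, with p-values adjusted by Benjamini-Hochberg across every tested gene and a threshold of 0.05. The SE of a log2 fold change is its size divided by the square root of F. CPM served for comparisons within a gene, and the deposited TPM of the authors for levels between genes. The code was tested on simulated data. Alternatives were DESeq2 1.42.0, RLE size factors, no filter, a replicate block, a fit of only the groups compared, and leaving out each library.

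The members and gene lists were chosen with earlier results of these data known. Genes named besides the members were, per list and comparison, up to 4 with the largest change among those called whose groups did not overlap, of which a part is printed, and the 3 closest in profile to each member whose group means spanned at least 1 on the log2 scale. Positions are from GENCODE 29 and promoter windows from RefSeq. Ratios of low counts and floors of 3 counts cover counting error only. PDX1-AS1 was not analysed here. Some genes of the lists are not reported here by name.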

Additional observations from a re-analysis of the deposited data

How the results depend on the processing

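Of 39 member results that passed, 9 passed under every alternative run. Over the 351 alternative settings of these 39, 266 kept direction and call, 85 kept direction but not the call, and 0 reversed. Of 113 member results that did not pass, 19 passed under at least 1 alternative. Without a filter 13 did, and the p-values of that fit carry the limit given for LINC00261. The cause of these differences was not tested. The labels give no meaning to a replicate number. Deviations of same-numbered libraries correlated at 0.05 to 0.53 (median 0.24) over 28 pairs of groups, all positive and 25 of them over 0.1, a hint from the data that numbers may share something. As not all were over 0.1, the numbers were not taken as pairs. The replicate block brought 14 member results past the threshold and lost 0, among them SOX9 for FLASH siRNA with TGFb (-0.34, adjusted p = 0.01) and for TGFb in non-transfected cells (0.37, adjusted p = 0.018). With a replicate block 5 members were called for FLASH siRNA against non-transfected cells with TGFb, 2 and 6 for FLASH against NPAT siRNA with and without TGFb, 4 for FLASH against SLBP siRNA with TGFb, 2 for SLBP siRNA against non-transfected cells without TGFb and 1 for the SLBP interaction. Without a filter (32163 genes tested) these were 6 for FLASH against NPAT siRNA and 3 for SLBP siRNA against non-transfected cells without TGFb, 4 for FLASH against SLBP siRNA with TGFb and 1 for the SLBP interaction, and DESeq2 also gave 1 there. Fits of only the groups compared, with fewer libraries to estimate the spread, gave 1 for FLASH against NPAT and against SLBP siRNA without TGFb, 1 and 0 for NPAT against SLBP siRNA with and without TGFb, and 1 for TGFb in NPAT siRNA cells.

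With each library left out in turn, the members called ranged, with TGFb and without it, from 2 to 3 and 2 to 3 for FLASH, 0 to 2 and 0 to 2 for NPAT and 0 to 3 and 0 to 1 for SLBP siRNA against non-transfected cells. Between siRNAs they ranged from 0 to 1 and 1 to 2 (FLASH and NPAT), 0 to 2 and 1 to 3 (FLASH and SLBP) and 1 to 2 and 0 to 2 (NPAT and SLBP). For TGFb they ranged from 0 to 2 in non-transfected, 0 to 1 in FLASH, 2 to 2 in NPAT and 2 to 3 in SLBP siRNA cells, and for the 3 interactions they stayed at 0. The lone library then left in a group is assumed to vary like the other groups. Of 234 calls of named list genes, 114 held with any 1 library left out, an alternative chosen after seeing the data. With 2 libraries a group and 5 to 91 counts a library for HNF4A, the lowest members are the least precise.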
